A study of Mus musculus with 64 samples.

Results

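The comparison set brown adipose tissue (BAT) of FANKO mice against BAT of WT mice at ZT18, and asked for which stress genes the genotype effect at ZT18 differed from the effect at the other BAT time points. Its members are the 8 BAT libraries that the sample labels give as ZT18, 4 of each genotype, out of 64 libraries in 16 groups, and every gene that passed a filter on low counts was tested, 20249 genes in all. RNA of BAT and of epididymal white fat was sequenced in both genotypes at ZT6, ZT10, ZT18 and ZT22, with 4 samples per group. FANKO mice are fat-specific *Nampt* knockouts from a cross of the NamptTM1Jtree line, in which an exon of *Nampt* lies between loxP sites, with Adiponectin-Cre mice. Their controls, called WT, were Cre-negative littermates that also came from this cross, and all mice were male and housed at room temperature. They were 2 to 4 months of age. Adiponectin-Cre acts in adipocytes, so the other cells of the tissue keep *Nampt*. ZT counts hours from lights on, which puts ZT6 and ZT10 in the light phase and ZT18 and ZT22 in the dark phase, when mice are active and feed. The labels number the samples of a group without naming animals, so p-values measure the spread between these samples, part of which may be technical.

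NAMPT makes nicotinamide mononucleotide, the precursor of NAD+, in the salvage pathway on which fat cells rely. Cells answer damage with distinct sets of genes: HSF1 raises chaperones when proteins misfold in the cytosol, the unfolded protein response raises chaperones of the endoplasmic reticulum, ATF4 raises amino acid transporters and synthetic enzymes, NRF2 raises antioxidant enzymes and p53 raises cell cycle inhibitors. Several of these sets also follow the time of day. Chaperone genes under HSF1 peak in the active phase with body temperature and feeding, and glucocorticoids, which rise before the active phase, raise genes such as *Fkbp5* and *Tsc22d3*.

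The libraries at ZT18 held between 14286070 and 30544847 counts assigned to genes in WT and between 11577588 and 19301946 in FANKO BAT. Genes of the mitochondrial genome took 16.8% to 34.5% of the counts in WT and 9.95% to 22.7% in FANKO, and levels are therefore given as CPM (counts scaled to a common library size after TMM normalization), a scale on which values of different genes are not compared. Scaling by library size alone moved the median log2 difference of all genes at ZT18 from −0.03 to 0.58, and changes are reported relative to the TMM scale. WT replicate 4 stood apart: in this library 3.99% of the genes lay apart from the other 3 libraries of the group (by Dixon's ratio of the gap to the nearest value over the range), against 1.16% to 1.32% in those. In WT at ZT22 the share was 3.89% for replicate 2 and 2.95% for replicate 4, and single libraries of that group were not left out. Where leaving out WT replicate 4 at ZT18 changed a call given below, at ZT18 or against the other times, this is stated for the gene or its list. Differences near 0 that did not pass also moved, some past 0, and their values without this library are not all given.

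*Nampt* itself was low in FANKO BAT. The WT libraries at ZT18 measured 883, 846, 763 and 1454 CPM of *Nampt* and the FANKO libraries 186, 155, 142 and 148 CPM. The groups did not overlap, and the highest value was that of WT replicate 4. The log2 difference was −2.64 ± 0.14 (SE, n = 4 per genotype, quasi-likelihood test of edgeR, Benjamini-Hochberg adjusted p = 2.95e-22), and the exact two-sided permutation test gave p = 0.0286, the smallest that 4 against 4 samples allow. This effect did not pass the test of a difference between ZT18 and the other time points (log2 −0.44 ± 0.15, edgeR adjusted p = 0.105), and without WT replicate 4 the difference was −0.19 (adjusted p = 0.539).

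Markers of the cells in the tissue differed between the genotypes at ZT18. All 6 adipocyte markers and 8 of 14 brown adipocyte markers were lower in FANKO, and their summed levels ran from 11484 to 13569 CPM in WT against 5862 to 8038 CPM in FANKO for adipocytes and from 6121 to 10034 CPM against 1766 to 4051 CPM for brown adipocytes, so the label of the tissue was borne out in both genotypes. Of 8 macrophage markers, 7 were higher and 1 was lower, with sums of 107 to 200 CPM in WT and 569 to 1375 CPM in FANKO. Lymphocyte markers, 7 of 8 of them higher, summed to 2.10 to 3.54 CPM in WT and 51.4 to 81.2 CPM in FANKO. Fibroblast and progenitor markers were higher for 5 of 7, endothelial markers lower for 4 of 6 and erythroid markers lower for 5 of 5, and the count for fibroblasts was 3 without WT replicate 2 and 2 without FANKO replicate 4. Of 6 genes that mark epididymal white fat and skin, 1 was lower in FANKO, *Krt10* (named after its values were seen), and none passed without WT replicate 1 or 2 or without FANKO replicate 1, 2 or 4. The endothelial median, −0.39, turned to 0.21 with library size alone, and with that scaling 3 Schwann cell markers passed as higher. With TMM scaling neither the 10 skeletal muscle nor the 5 Schwann cell markers had a gene that passed, with 0 genes at an unadjusted p below 0.05 and 0 by DESeq2 or limma-voom in either list. In bulk tissue, fewer cells of a type and less RNA per cell cannot be told apart, and the part that these cells have in the differences below was not tested. In the test of ZT18 against the other time points no gene of these 10 lists passed an FDR of 0.01 in edgeR. In that test 9 had an unadjusted p below 0.05 (beside 16.3% of all genes), DESeq2 called 1 endothelial gene and limma-voom 0.

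At ZT18 the genotypes differed widely, and stress genes differed in both directions. Of all genes tested, 8905 passed an FDR of 0.01 (44.0%), 4351 higher (21.5%) and 4554 lower in FANKO (22.5%). Changes of more than 2-fold that passed numbered 2993 higher (14.8%) and 1818 lower (8.98%). The 10 stress lists name 271 genes, of which 269 were tested, and 97 were higher, 65 lower and 107 did not pass, with a median log2 difference of 0.13 beside −0.03 over all genes. For 152 of the 269 the CPM values of the groups did not overlap, beside 8443 of all genes (41.7%). With library size alone, the counts of stress genes were 174 higher and 25 lower.

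The direction depended on the kind of stress gene. Over all genes 21.5% were higher and 22.5% lower, and 44.0% passed in either direction. The heat shock list, with 32.5% called, lay below that share. The NRF2 list, with 56.25% called, had as many genes higher as lower. Inflammatory and interferon-responsive genes were higher for 23 of 24 (median log2 difference 4.88), p53 and DNA damage genes were higher for 13 and lower for 4 of 27 (0.73), immediate early genes higher for 14 and lower for 1 of 25 (0.69), ATF4 genes higher for 19 and lower for 9 of 40 (0.54) and genes of the endoplasmic reticulum higher for 15 and lower for 2 of 31 (0.31). NRF2 and antioxidant genes were split, 9 higher and 9 lower of 32 (0.11). Mitochondrial chaperones and proteases were lower for 14 of 17 and higher for none (−0.998), and glucocorticoid-responsive genes and metallothioneins lower for 11 and higher for 1 of 22 (−0.65). Hypoxia-responsive genes were lower for 8 and higher for 2 of 20 (−0.43), and heat shock and cytosolic chaperone genes lower for 8 and higher for 5 of 40 (−0.14), and both of these medians turned positive with library size alone (0.16 and 0.49). The other list medians kept their sign under each scaling, that of the glucocorticoid list only just (−0.08 with library size alone). Without WT replicate 4 the median of the glucocorticoid list was −0.18, with 7 genes lower and 3 higher, and without FANKO replicate 1 that of the NRF2 list was −0.02.

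**Figure D1:**
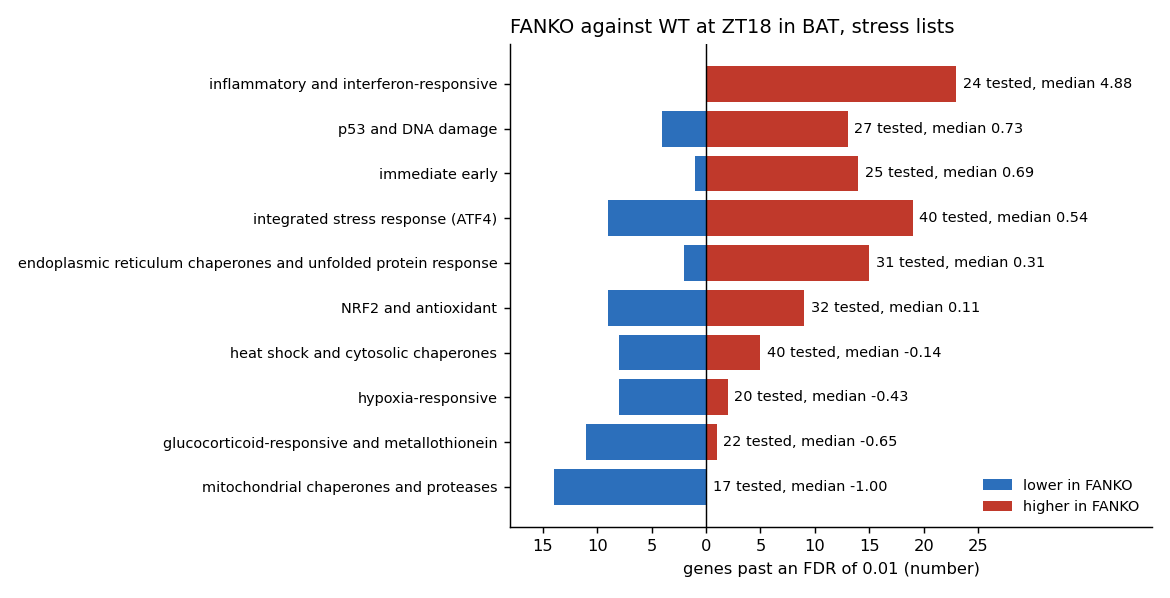
Number of genes of each stress list past an FDR of 0.01 in FANKO against WT BAT at ZT18 (4 samples per genotype), with genes lower in FANKO to the left of 0 and genes higher to the right. The list of inflammatory genes holds 23 higher genes of 24 and the list of mitochondrial chaperones 14 lower genes of 17, while the heat shock list (median −0.14, or 0.49 with library size alone) has calls in both directions.

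Few of these effects passed a direct test of a difference between ZT18 and the other times. The genotype effect at ZT18 minus the mean of the effects at ZT6, ZT10 and ZT22 passed an FDR of 0.01 in edgeR for 151 genes (0.746%), 63 in which this difference was above 0 (0.311%) and 88 below 0 (0.435%). Among the 269 stress genes 7 passed, 1 above and 6 below 0, and 23 passed an FDR of 0.05, which 2.91% of all genes did. An unadjusted p below 0.05 was reached in this test by 16.3% of all genes. The counts at that level given for single lists are to be read beside this share. The median difference of the stress genes was −0.01, beside −0.05 over all genes. The 7 genes were *Fkbp5*, *Zbtb16*, *Cdkn1a*, *Gadd45b*, *Ier5* and *Stip1*, whose FANKO levels stood lower relative to WT at ZT18 than on the mean of the other times, and *Hspa5*, which stood higher. Against ZT22 alone, the other dark phase time, no stress gene passed, so these differences are not shown to be particular to ZT18. Leaving out each of the 8 libraries in turn gave 4 to 9 stress genes, with 4 without WT replicate 1 or FANKO replicate 2, and *Fkbp5* and *Stip1* passed each time. The number over all genes fell to 61 without FANKO replicate 1 and to 95 without WT replicate 3, and 94 of the 151 genes were among the 163 found without WT replicate 4. Without that library *Creld2*, *Hspa13*, *Gsta3*, *P4ha1*, *Ahsa1*, *Atf4*, *Sesn2*, *Eif2ak2*, *Jun* and *Klf6*, given below, no longer passed an FDR of 0.05. Their edgeR adjusted p then ran from 0.0539 (*Hspa13*) to 0.162 (*Eif2ak2*).

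**Figure D2:**
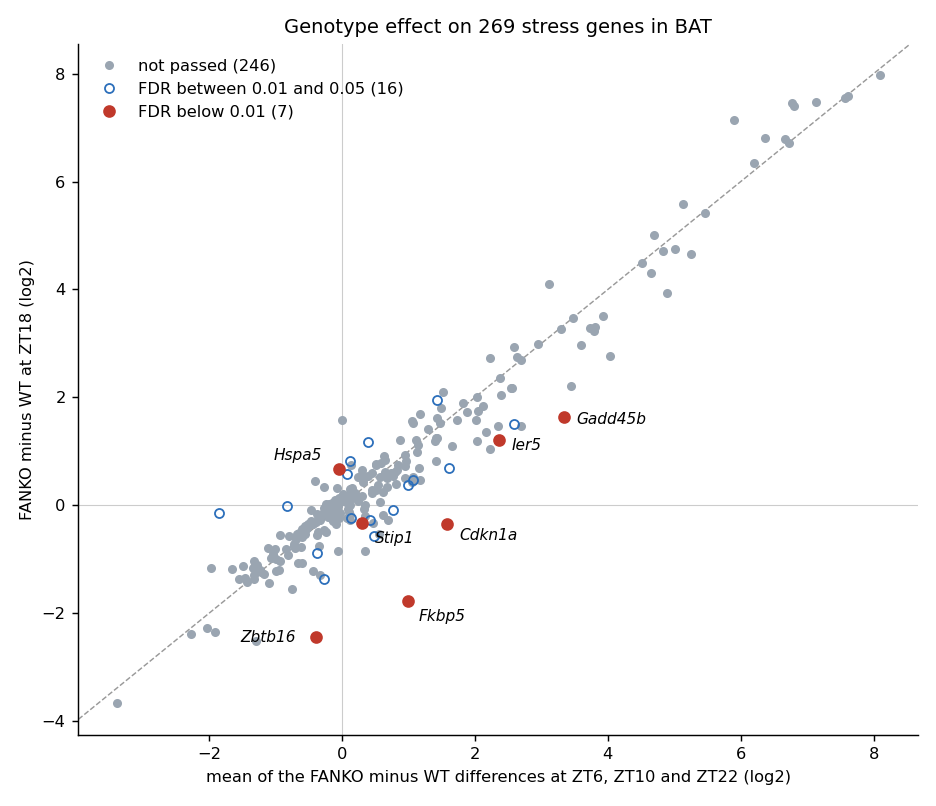
Log2 difference of FANKO minus WT at ZT18 (vertical axis) against the mean of the differences at ZT6, ZT10 and ZT22 (horizontal axis) for the 269 stress genes tested, with the dashed line at equal effects. Filled red points are the 7 genes past an FDR of 0.01 in the test of the difference, open blue points the 16 between 0.01 and 0.05, and 6 of the 7 lie below the line.

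**Figure D3:**
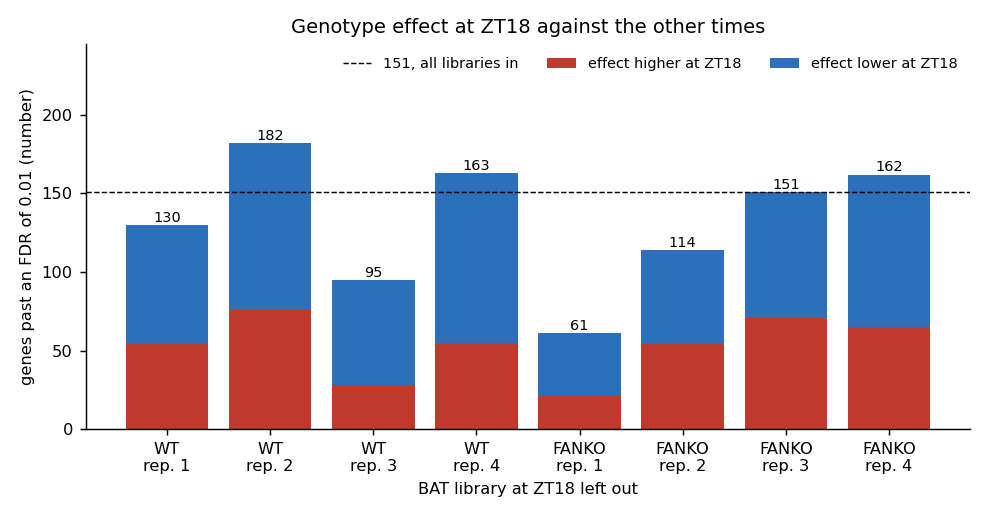
Number of genes (of 20249) past an FDR of 0.01 in the test of ZT18 against the other time points when 1 of the 8 BAT libraries at ZT18 was left out, with effects higher at ZT18 in red and lower in blue. The dashed line marks the 151 genes found with all libraries, and the counts run from 61 without FANKO replicate 1 to 182 without WT replicate 2.

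Of the 7 genes, the 3 with the largest differences with all libraries in, *Fkbp5*, *Zbtb16* and *Cdkn1a*, were all in the glucocorticoid-responsive list. This order rested on WT replicate 4. Without it the largest differences were those of *Gadd45b* (−1.66), *Fkbp5* (−1.45) and *Ier5* (−1.33), and *Gadd45b* and *Ier5* are not in that list. *Fkbp5* (chr17:28399094-28517527, minus strand, GRCm38), which encodes a co-chaperone that lowers the affinity of the glucocorticoid receptor for its hormone, measured 29.5, 10.6, 17.3 and 134 CPM in the WT libraries at ZT18 and 10.1, 14.8, 14.0 and 16.05 CPM in the FANKO libraries. The groups overlapped, and WT replicate 4 lay far above the rest. In WT the means at ZT6, ZT10 and ZT22 were 3.54, 13.5 and 7.18 CPM, and in FANKO 11.4, 16.4 and 14.1 CPM. The genotype effect went from a mean above 0 at the other times to −1.78 at ZT18, a difference of −2.77 ± 0.45 (log2, edgeR adjusted p = 0.000137). *Fkbp5* rose at ZT18 in WT (log2 2.75 ± 0.29, adjusted p = 4.88e-10), and in FANKO ZT18 lay −0.01 ± 0.31 from the other times. Without WT replicate 4 the difference was −1.45 (edgeR adjusted p = 0.0073), limma-voom gave −2.01 with an adjusted p of 0.0151, and the genotype effect at ZT18 alone no longer passed (−0.47, edgeR adjusted p = 0.165).

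*Zbtb16* (chr9:48654297-48836222, minus strand), a zinc finger repressor induced by glucocorticoids, measured 23.8, 52.6, 29.1 and 255 CPM in WT at ZT18 and 13.6, 20.3, 18.4 and 13.9 CPM in FANKO. The groups did not overlap, though the highest WT value again came from replicate 4. Its difference between ZT18 and the other times was −2.05 ± 0.47 (log2, edgeR adjusted p = 0.00821), but −0.72 without WT replicate 4 (adjusted p = 0.308), and it missed the threshold in 13 of 21 alternatives, limma-voom and the replicate block (−1.86, adjusted p = 0.0128) among them. *Tsc22d3*, the glucocorticoid-induced leucine zipper, had the same high library (126, 90.3, 82.2 and 387 CPM in WT against 63.3, 74.5, 57.5 and 69.7 CPM in FANKO) and a difference of −1.10 ± 0.30 that did not pass (adjusted p = 0.0281). Without that library the difference was −0.32 (adjusted p = 0.529), and the effect at ZT18 went from −1.37 (adjusted p = 1.08e-05) to −0.59 and no longer passed (adjusted p = 0.0106). *Mt2*, a metallothionein that binds zinc and copper, went the other way. Its WT mean was 23.7 CPM at ZT6 and 22.1 CPM at ZT10 but 3.90 CPM at ZT18, where FANKO had 3.38 CPM, and the difference of 1.71 ± 0.46 (adjusted p = 0.0274) did not pass, but passed at 2.19 without WT replicate 4 (adjusted p = 0.00523). Over the 22 genes of the list, 3 passed in the direction below 0, and the median difference, −0.40, was 0.04 without WT replicate 4.

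Among the p53 and DNA damage genes, the cell cycle inhibitor *Cdkn1a* (p21, chr17:29090976-29100727, plus strand), which glucocorticoids also raise and which both lists hold, measured 23.5, 35.1, 40.3 and 143 CPM in WT at ZT18 and 51.2, 53.5, 31.8 and 52.6 CPM in FANKO. Replicate 4 was again the highest WT library, and 3 of the 4 FANKO values lay above the other 3 WT values. At the other times *Cdkn1a* was higher in FANKO, by 2.35 at ZT6, 1.89 at ZT10 and 0.48 at ZT22 (log2), against −0.34 ± 0.31 at ZT18, so the difference was −1.91 ± 0.37 (edgeR adjusted p = 0.0013). *Cdkn1a* rose at ZT18 in WT by 2.04 ± 0.24 (adjusted p = 9.84e-09), and in FANKO ZT18 lay 0.13 ± 0.25 from the other times. Without WT replicate 4 the effect at ZT18 was 0.52 (adjusted p = 0.0955), above 0 as at the other times, and the difference was −1.05 and did not pass (adjusted p = 0.0376).

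*Gadd45b* (chr10:80930073-80932204, plus strand), a stress sensor that binds PCNA and kinases of the p38 pathway, kept a genotype effect at ZT18 but a smaller one. It measured 10.5, 4.10, 5.24 and 7.51 CPM in WT and 21.3, 19.1, 19.7 and 23.9 CPM in FANKO, with no overlap. The effect was 4.04 at ZT6, 3.66 at ZT10, 2.32 at ZT22 and 1.63 ± 0.26 at ZT18 (log2, adjusted p = 3.52e-07), and the difference of ZT18 from the others was −1.71 ± 0.32 (edgeR adjusted p = 0.0012). It passed without WT replicate 4 and missed the threshold without WT replicate 1 (−1.42, adjusted p = 0.0107). Levels in WT rose from 0.896 CPM at ZT6 and 1.08 CPM at ZT10 to 6.85 ± 2.84 CPM (SD, n = 4) at ZT18, while FANKO means stayed between 14.4 and 21.0 CPM. Of the 27 p53 genes only *Cdkn1a* and *Gadd45b* passed in this test, beside 8 at an unadjusted p below 0.05, and the list's median difference was −0.20. Other p53 genes were raised in FANKO at ZT18 without a difference from the other times that passed, such as *Apaf1*, the scaffold of the apoptosome (1.83 ± 0.14, difference −0.29 ± 0.16), and *Pmaip1*, a BH3-only activator of apoptosis (4.72 ± 0.43 at ZT18, difference −0.11 ± 0.61). Without WT replicate 4 the difference of *Pmaip1* was −0.42. *Mdm2*, the ligase that degrades p53, was higher by 0.79 ± 0.09, with a difference of 0.20 ± 0.10.

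*Ier5* (chr1:155096361-155099636, minus strand), an immediate early gene whose product activates HSF1, also had a smaller genotype effect at ZT18. The WT libraries measured 19.2, 13.4, 21.1 and 8.65 CPM and the FANKO libraries 30.01, 35.3, 29.4 and 50.4 CPM, with no overlap. The effect was 1.22 ± 0.22 at ZT18 (log2, adjusted p = 3.15e-06), against 2.47, 2.72 and 1.88 at ZT6, ZT10 and ZT22, a difference of −1.14 ± 0.25 (edgeR adjusted p = 0.00729). It missed the threshold in 11 of 21 alternatives, with values from −1.54 to −0.81 throughout. For *Jun*, a subunit of AP-1, the effect fell from 2.07 at ZT6 and 2.11 at ZT10 to 0.69 at ZT18 and 0.64 at ZT22, and for *Klf6*, a zinc finger factor induced by injury, from 1.35 at ZT6 to 0.46 at ZT18. Neither difference passed (*Jun* −0.91 ± 0.26, adjusted p = 0.0346, *Klf6* −0.61 ± 0.16, adjusted p = 0.0264). Over the 25 immediate early genes tested, 1 passed, 11 had an unadjusted p below 0.05, and the median difference was −0.44. *Fos*, *Egr2* and *Atf3* were among the genes most raised at ZT18 (3.93 ± 0.43, 3.503 ± 0.41 and 4.30 ± 0.31), and their differences from the other times (−0.96 ± 0.58, −0.42 ± 0.52 and −0.35 ± 0.38) did not pass.

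**Figure D4:**
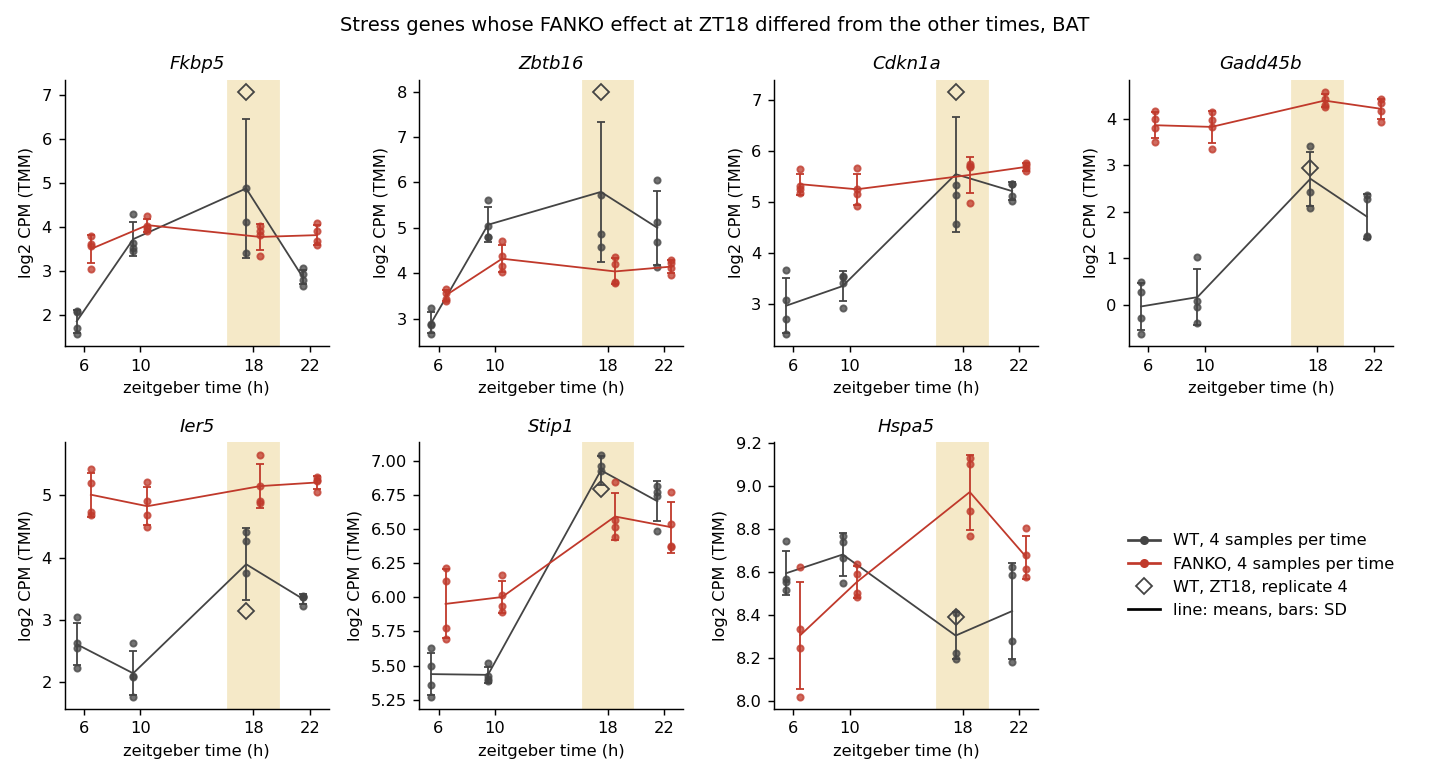
Log2 CPM (TMM scaled) of the 7 stress genes whose FANKO effect at ZT18 differed from the mean effect at the other times, by zeitgeber time in hours, with WT in grey and FANKO in red, 4 samples each, lines through the means and bars of 1 SD. ZT18 is shaded and WT replicate 4 at ZT18 is drawn as an open diamond: it is the highest WT value for *Fkbp5*, *Zbtb16* and *Cdkn1a* (134, 255 and 143 CPM) and the lowest for *Ier5* and *Stip1* (8.65 and 111 CPM).

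Heat shock genes rose at ZT18 in both genotypes. Of 40 genes tested, 20 were higher at ZT18 than at the other times in WT and 20 in FANKO, and none was lower in either, where 1131 of all genes passed in WT (5.59%, with 3.69% higher) and 216 in FANKO (1.07%, with 0.721% higher). 17 genes rose in both, 85.0% of each set. The median change over the list was 0.31 in WT and 0.37 in FANKO (log2), beside 0.03 and −0.01 over all genes. Without FANKO replicate 1 the count in FANKO was 8, and with library size alone it was 11, all of them still higher at ZT18. Of the 17 genes, 13 had the larger rise in WT, and 7 genes rose by more than 1 (log2) in WT against 3 in FANKO. The direct test of this difference passed for *Stip1* alone, and for 5 genes at an FDR of 0.05, all below 0. Over all 40 genes of the list the median difference was 0.007, beside −0.05 over all genes tested, with 21 above 0 and 19 below. The smaller rise in FANKO was thus seen in part of the list only.

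*Stip1* (chr19:7020702-7039967, minus strand), the HOP protein that hands clients from HSP70 to HSP90, measured 121, 125, 132 and 111 CPM in WT at ZT18 and 115, 94.9, 86.8 and 91.5 CPM in FANKO. The groups overlapped through FANKO replicate 1. At ZT6 and ZT10 the order was the reverse, with WT means of 43.4 and 43.1 CPM and FANKO means of 62.5 and 64.2 CPM. The genotype effect of −0.33 ± 0.10 at ZT18 (log2, adjusted p = 0.00358) turned to 0.29 with library size alone, but the difference from the other times, −0.64 ± 0.12 (edgeR adjusted p = 0.000856), passed without each of the 8 libraries. WT rose by 1.08 ± 0.08 and FANKO by 0.44 ± 0.08. The difference of *Stip1* against ZT22 alone, given below, did not pass.

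*Hspa8*, *Hsph1*, *Ahsa1* and *Hspa4l* made up the rest of the 5 genes. *Hspa8*, the constitutive HSP70 of the cytosol, measured 1102, 1094, 1110 and 1176 CPM in WT and 1081, 882, 811 and 915 CPM in FANKO at ZT18, against means of 184 and 407 CPM at ZT6. All 4 FANKO values lay below the WT values at ZT18, the opposite order to ZT6, and the difference was −0.70 ± 0.18 (edgeR adjusted p = 0.0197). Small nucleolar RNAs (*Snord14c*, *Snord14d* and *Snord14e*) overlap exons of *Hspa8* on the same strand, so its counts may hold some of theirs. *Hsph1*, the HSP110 nucleotide exchange factor, rose from 17.9 CPM at ZT6 to 129 ± 23.4 CPM (SD, n = 4) at ZT18 in WT and from 39.6 to 121 ± 22.8 CPM in FANKO, with a difference of −0.86 ± 0.22 (adjusted p = 0.0205). *Ahsa1*, an activator of the HSP90 ATPase, and *Hspa4l*, a relative of HSP110, had differences of −0.36 ± 0.11 (adjusted p = 0.0491) and −0.50 ± 0.14 (adjusted p = 0.0274). *Hspa4l* was also lower in FANKO at ZT18 itself, with 230, 232, 240 and 240 CPM in WT against 149, 113, 121 and 130 CPM, and no overlap (−0.88 ± 0.12, adjusted p = 6.48e-09).

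Other heat shock genes carried a genotype effect that did not differ by time in the test. *Cryab*, the small chaperone alphaB-crystallin, measured 18.2, 15.6, 15.3 and 8.21 CPM in WT and 117, 67.1, 59.9 and 145 CPM in FANKO at ZT18, with no overlap (2.76 ± 0.26, adjusted p = 2.96e-13, difference 0.13 ± 0.29). Without WT replicate 4 the difference of *Cryab* was −0.06. *Ahsa2*, another HSP90 co-chaperone gene, was lower in FANKO (−1.03 ± 0.11, adjusted p = 1.68e-11, difference −0.10 ± 0.13). *Hspa1b*, the stress-inducible HSP70, measured 6.89, 2.80, 4.08 and 4.46 CPM in WT and 13.7, 6.67, 10.1 and 10.8 CPM in FANKO at ZT18, with an overlap of the lowest FANKO and the highest WT value (1.19 ± 0.33, adjusted p = 0.00193), and it rose at ZT18 in WT (2.70 ± 0.31) and in FANKO (1.86 ± 0.25). *Hspa1a*, named here after its values were seen, is a near-identical copy of *Hspa1b*, and reads may be divided between them, so the values of each are uncertain.

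**Figure D5:**
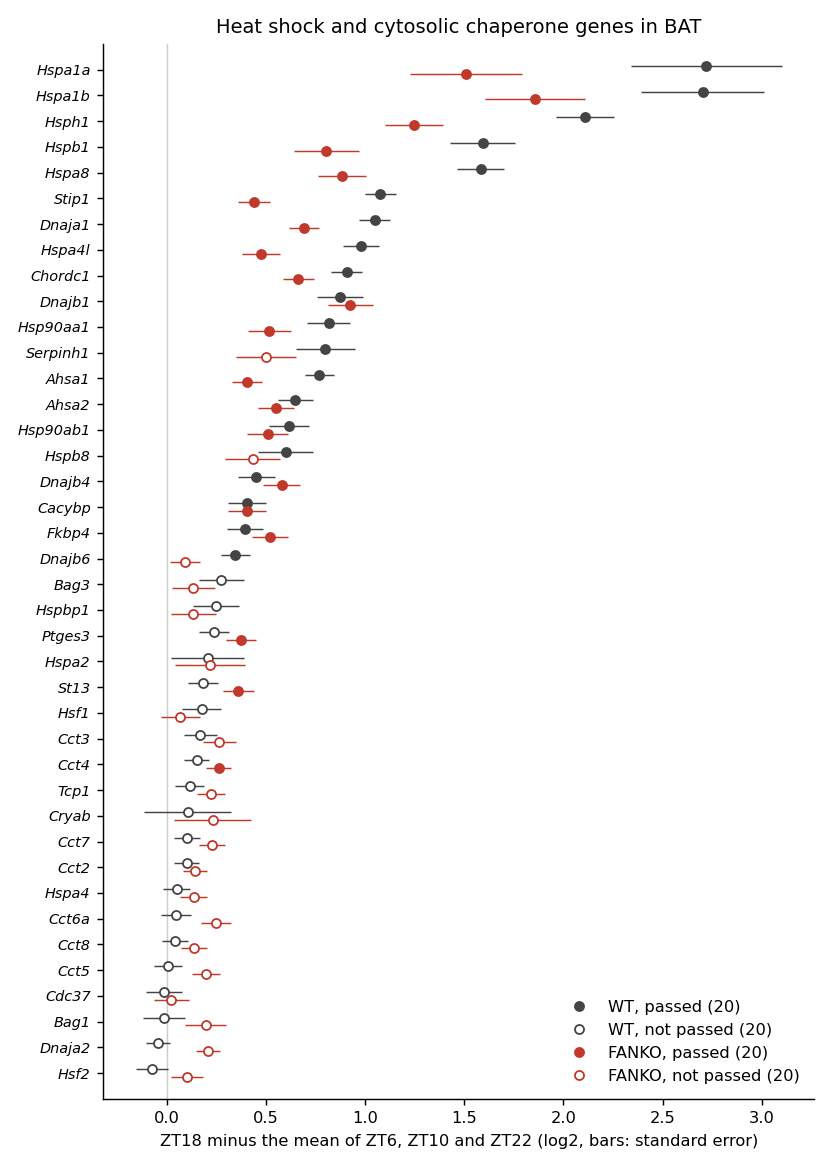
Change at ZT18 from the mean of ZT6, ZT10 and ZT22 (log2, points with standard error) for the 40 heat shock and cytosolic chaperone genes, WT in grey and FANKO in red, filled where the change passed an FDR of 0.01 (20 genes in each genotype). The changes of the genes that passed are all above 0, and for *Hsph1* the WT point lies at 2.11 and the FANKO point at 1.25.

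HSF1 binds repeats of the 5-base unit nGAAn in alternating orientation, so the promoters of the genes that rose are shown. The 250 bases before each RefSeq transcription start (build GRCm38.p6) were searched on both strands for 2 units, GAANNTTC or TTCNNGAA, after the forms with 3 such units in alternation had been found in only 1 of the 33 heat shock genes with a window (3.03%) and in 0.514% of all genes. The 3-unit forms contain the 2-unit forms. The 2-unit form was present for 11 of these 33 genes (33.3%), for 8 of 17 that were higher at ZT18 in WT (47.1%), for 3 of 16 that did not pass (18.8%) and for 3932 of 27025 genes in all (14.5%). Printed below, with the match in capitals, are the 4 genes with the smallest p for the rise in WT among those that hold a match, each from 5′ to 3′ and ending at the base before the start.
Hsph1, chr5:149636337-149636586, minus strand: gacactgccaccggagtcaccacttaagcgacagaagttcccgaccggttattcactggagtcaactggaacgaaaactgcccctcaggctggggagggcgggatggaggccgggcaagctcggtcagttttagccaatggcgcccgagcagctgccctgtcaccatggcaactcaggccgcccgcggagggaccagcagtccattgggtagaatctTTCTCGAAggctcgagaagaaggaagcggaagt
Dnaja1, chr4:40722218-40722467, plus strand: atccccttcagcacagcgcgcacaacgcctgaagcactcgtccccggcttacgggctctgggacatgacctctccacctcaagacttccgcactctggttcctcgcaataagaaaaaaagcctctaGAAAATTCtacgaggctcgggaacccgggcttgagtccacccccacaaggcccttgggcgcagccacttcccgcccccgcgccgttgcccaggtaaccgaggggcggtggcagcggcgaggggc
Hspb1, chr5:135887669-135887918, plus strand: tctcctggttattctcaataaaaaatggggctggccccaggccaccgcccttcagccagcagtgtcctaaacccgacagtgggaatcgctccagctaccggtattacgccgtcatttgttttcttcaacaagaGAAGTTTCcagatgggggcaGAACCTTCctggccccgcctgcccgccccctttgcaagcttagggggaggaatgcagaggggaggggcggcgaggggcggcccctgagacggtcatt
Hspa1b, chr17:34959239-34959488, minus strand: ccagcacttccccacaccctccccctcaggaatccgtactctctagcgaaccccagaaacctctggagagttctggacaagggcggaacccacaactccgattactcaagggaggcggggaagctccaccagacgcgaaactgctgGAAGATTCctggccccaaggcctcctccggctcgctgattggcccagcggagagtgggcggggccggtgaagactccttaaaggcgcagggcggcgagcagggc
The matches end 26 bases before the start in *Hsph1*, 117 in *Dnaja1*, 110 and 90 in *Hspb1* and 97 in *Hspa1b*. *Stip1*, *Ahsa1* and *Hspa4l* had no match in these windows. *Hspa8*, *Hsf1*, *St13*, *Cryab*, *Hsp90aa1*, *Hsp90ab1* and *Cct4* had no window in the table used. *Dnaja1*, a J-domain partner of HSP70, rose at ZT18 in WT (1.05 ± 0.08) and in FANKO (0.69 ± 0.08), and *Hspb1*, the small chaperone HSP27, by 1.59 ± 0.16 and 0.80 ± 0.16. Their differences between genotypes did not pass (−0.36 ± 0.11 and −0.79 ± 0.25, edgeR adjusted p = 0.0706 and 0.0622), and that of *Hspb1* was −0.50 without WT replicate 4. A match is a description of these letters, not a site shown to be bound.

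The single stress gene with a difference above 0 encodes a chaperone of the endoplasmic reticulum. *Hspa5* (BiP, chr2:34771970-34777547, plus strand), the HSP70 of that compartment and the sensor partner of the unfolded protein response, measured 293, 340, 298 and 335 CPM in WT and 562, 473, 436 and 550 CPM in FANKO. The groups did not overlap at ZT18, whereas at ZT6 the FANKO mean, 320 CPM, lay below the WT mean of 387 CPM. The effect was 0.67 ± 0.15 at ZT18 (log2, adjusted p = 9.9e-05) against −0.28, −0.13 and 0.24 at ZT6, ZT10 and ZT22, a difference of 0.73 ± 0.17 (edgeR adjusted p = 0.00981). It missed the threshold in 13 of 21 alternatives, leaving out any of 7 of the 8 libraries among them, with values between 0.59 and 0.84 throughout. *Creld2*, a disulfide isomerase induced with BiP, measured 7.71, 7.25, 7.28 and 5.59 CPM in WT and 17.5, 14.7, 11.3 and 18.9 CPM in FANKO, and *Hspa13*, another HSP70 of the compartment, measured 38.6, 35.4, 31.8 and 29.8 CPM against 60.4, 46.9, 47.3 and 47.7 CPM. Both were higher in FANKO without overlap (1.17 ± 0.18 and 0.58 ± 0.11), and their differences from the other times, 0.78 ± 0.21 and 0.50 ± 0.13, passed only an FDR of 0.05 (adjusted p = 0.0265 and 0.0187). The disulfide isomerases *P4hb* and *Pdia4* were higher by 0.74 ± 0.10 and 0.75 ± 0.10 at ZT18 with differences of −0.09 ± 0.11 and 0.25 ± 0.12. *Sdf2l1*, a partner of BiP, was raised at every time, by 2.35 ± 0.26 at ZT18. Over the 31 genes the median difference was 0.15, with 12 genes at an unadjusted p below 0.05, and without WT replicate 4 no gene of the list passed.

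Genes under ATF4 and NRF2 were changed at ZT18 but had no gene past the threshold in the test against the other times. In the ATF4 list 11 of 40 genes had an unadjusted p below 0.05 (beside 16.3% of all genes). Neither DESeq2 nor limma-voom called any, and the median difference was 0.00. *Atf4* itself measured 64.1, 85.2, 52.9 and 56.5 CPM in WT and 153, 94.7, 105 and 107 CPM in FANKO at ZT18, without overlap (0.83 ± 0.18, adjusted p = 0.000124, difference 0.71 ± 0.21, adjusted p = 0.0478). *Sesn2*, a leucine sensor that restrains mTORC1, did not differ in the test at ZT18, with means of 10.04 ± 1.77 CPM (SD, n = 4) in WT and 9.89 ± 1.00 CPM in FANKO, after lower FANKO levels at ZT6 and ZT10 (−0.96 and −1.11), and its difference was 0.80 ± 0.22 (adjusted p = 0.032). *Eif2ak2*, the kinase PKR, which interferon induces, had the larger effect at ZT18 (1.95 ± 0.14, difference 0.52 ± 0.16, adjusted p = 0.0493). The cystine transporter *Slc7a11*, held by both lists, had 7 counts over the 4 WT libraries at ZT18 and 1732 over the FANKO libraries.

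In the NRF2 list, 4 of 32 genes had an unadjusted p below 0.05, a smaller share than the 16.3% of all genes. DESeq2 called 1 and limma-voom none, and the median difference was 0.05. *Hmox1*, heme oxygenase, measured 9.98, 6.75, 6.73 and 5.77 CPM in WT and 238, 74.4, 47.7 and 141 CPM in FANKO at ZT18 (4.10 ± 0.32, adjusted p = 2.3e-16), and its difference of 0.99 ± 0.35 did not pass (adjusted p = 0.109). The FANKO values spread over a wide range, with replicate 1 the highest. *Nqo1*, a quinone reductase, and *Srxn1*, sulfiredoxin, were higher by 2.74 ± 0.25 and 1.53 ± 0.18 without overlap. *Gsta3*, a glutathione transferase, rose at ZT18 in WT (1.27 ± 0.22, adjusted p = 3.37e-05) and changed by 0.17 ± 0.19 in FANKO, a difference of −1.09 ± 0.30 that passed only an FDR of 0.05 (adjusted p = 0.0303).

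No mitochondrial chaperone and no inflammatory gene passed the test against the other times. *Hspd1*, the HSP60 of the matrix, measured 557, 555, 608 and 592 CPM in WT and 244, 204, 241 and 214 CPM in FANKO at ZT18, without overlap (−1.36 ± 0.12, adjusted p = 3.44e-14), and the effects at ZT6, ZT10 and ZT22 were −1.54, −1.37 and −1.45. Its partner *Hspe1*, whose exons overlap those of *Hspd1* on the opposite strand, and the HSP90 of the matrix, *Trap1*, were lower by 1.12 ± 0.13 and 1.30 ± 0.12 at ZT18 (log2 −1.12 and −1.30). Of the 17 genes none passed the test against the other times, with 2 at an unadjusted p below 0.05 and 0 by DESeq2 or limma-voom. Of the 24 inflammatory genes none passed either, with 1 at an unadjusted p below 0.05 and 0 by DESeq2 or limma-voom. *Irf7*, a master factor of the interferon response, measured 5.30, 4.90, 5.44 and 4.72 CPM in WT and 709, 679, 388 and 493 CPM in FANKO at ZT18 (6.80 ± 0.39, adjusted p = 2.91e-21, difference 0.13 ± 0.39), and *Tnf* had 15 counts in WT and 425 in FANKO. Most macrophage and lymphocyte markers were also higher in FANKO at ZT18, as given above, and their relation to these genes was not tested.

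In the hypoxia list no gene passed in edgeR, DESeq2 called 1 and limma-voom 0. An unadjusted p below 0.05 was found for 2 of 20, a smaller share than the 16.3% of all genes. *Hilpda*, a lipid droplet protein that inhibits lipolysis, measured 6.13, 8.65, 4.35 and 7.86 CPM in WT and 4.06, 4.36, 4.71 and 5.07 CPM in FANKO at ZT18. The groups overlapped, and the effect changed from 1.36 at ZT6 to −0.57 at ZT18, with a difference from the 3 other times of −1.06 ± 0.25 (adjusted p = 0.0112). *P4ha1*, a subunit of prolyl 4-hydroxylase, rose at ZT18 in both genotypes (1.504 ± 0.12 in WT and 0.88 ± 0.12 in FANKO), and the difference of −0.62 ± 0.18 passed only an FDR of 0.05 (adjusted p = 0.0359). *Egln1*, an oxygen sensor, and *Epas1*, which encodes HIF2alpha, were lower at ZT18 by log2 −1.37 ± 0.13 and −1.27 ± 0.17, with differences of −0.04 ± 0.14 and −0.10 ± 0.19.

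Clock genes are given as background to the timing. 3 of 20 passed the test of ZT18 against the other times, all below 0, and 11 had an unadjusted p below 0.05. *Arntl* (BMAL1, the activator that pairs with CLOCK) measured 30.1, 36.8, 34.8 and 35.0 CPM in WT and 16.7, 15.96, 19.2 and 16.4 CPM in FANKO at ZT18. The groups did not overlap, and the order was the reverse of that at ZT6 and ZT10, where the WT means were 5.42 and 2.01 CPM and the FANKO means 15.4 and 10.02 CPM. The difference of −1.93 ± 0.28 (edgeR adjusted p = 3.53e-05) passed in each of 21 alternatives. Against ZT22 alone no gene of the clock list passed. *Cry1*, a repressor of the clock, had 45.6 ± 6.34 CPM (SD, n = 4) in WT and 28.3 ± 2.08 CPM in FANKO at ZT18, without overlap, and a difference of −0.86 ± 0.16 (adjusted p = 0.000911). *Rora*, a nuclear receptor that activates *Arntl*, had a difference of −0.84 ± 0.16 (adjusted p = 0.00129), which was −0.62 without WT replicate 4 (adjusted p = 0.0128).

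The time point against which ZT18 was set mattered. Against ZT6, 396 genes passed (1.96%, with 187 above 0, 0.924%, and 209 below, 1.03%), of which 16 were stress genes, 4 above and 12 below 0. Against ZT10, 157 genes passed (0.775%, with 0.222% above and 0.553% below 0) and 9 of them were stress genes, 1 above and 8 below 0. Against ZT22, the other dark phase time, 1 gene passed (0.00494%), *Gramd1b*, a sterol transfer protein named here because it was the single call (−2.12 ± 0.36, adjusted p = 0.00485), and no stress gene passed, with 31 at an unadjusted p below 0.05, 1 by DESeq2 and 0 by limma-voom. The share of all genes at that unadjusted level was not taken for this comparison, so whether 31 is many or few cannot be said. The 3 comparisons share the ZT18 libraries, and the counts are given side by side only. For *Cdkn1a* the difference was −2.69 ± 0.46 against ZT6, −2.23 ± 0.46 against ZT10 and −0.82 ± 0.44 against ZT22, and for *Stip1* it was −0.86 ± 0.14, −0.91 ± 0.14 and −0.15 ± 0.14. For *Fkbp5* the order was another, with −3.51 ± 0.59 against ZT6, −2.06 ± 0.54 against ZT10 and −2.74 ± 0.56 against ZT22 (adjusted p = 0.000117, 0.0254 and 0.106 in edgeR). Skeletal muscle markers in WT summed to 2.04 to 543 CPM at ZT18 and to 1.78 to 16.01 CPM at ZT22, and their part in the comparison with ZT22 was not tested.

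Over all genes, the 5 with the smallest p below 0 in the test of ZT18 against the other times were *Svil*, *Dapk1*, *Arntl*, *Klf13* and *Slc9a3r1*. *Svil*, which encodes the membrane and actin linker supervillin, measured 49.7, 57.1, 49.4 and 86.6 CPM in WT and 49.7, 72.6, 61.1 and 64.2 CPM in FANKO at ZT18. The groups overlapped there, after effects of 1.61, 1.18 and 0.63 at ZT6, ZT10 and ZT22, and the difference was −1.11 ± 0.15 (edgeR adjusted p = 1.34e-05). *Dapk1*, a kinase that promotes cell death, and *Slc9a3r1*, the scaffold NHERF1, likewise had effects near 0 at ZT18 (0.05 ± 0.13 and −0.00 ± 0.17) and differences of −1.03 ± 0.15 and −1.37 ± 0.20. *Klf13*, a zinc finger factor, was lower in FANKO at ZT18 (89.1, 87.3, 82.0 and 145 CPM in WT against 34.5, 51.2, 55.3 and 51.7 CPM), and its difference was −1.16 ± 0.17.

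In the direction above 0 the 5 genes were *Ftsj3*, *Nifk*, *Ubtf*, *Fbxl6* and *Trmt10c*. *Ftsj3*, a methyltransferase of ribosomal RNA, measured 27.3, 33.4, 26.5 and 28.2 CPM in WT and 51.3, 44.1, 39.1 and 42.2 CPM in FANKO at ZT18, without overlap, after effects of −0.31, −0.13 and 0.11 at the other times (difference 0.72 ± 0.11, edgeR adjusted p = 9.33e-05). *Nifk*, a nucleolar protein that binds Ki-67, had the same order (0.71 ± 0.11, adjusted p = 0.000106). *Ubtf*, the RNA polymerase I transcription factor UBF, did not differ in the test at ZT18 (42.0 ± 1.02 CPM in WT and 44.7 ± 2.48 CPM in FANKO, SD, n = 4, overlapping), whereas the WT mean at ZT6 was 102 CPM and that of FANKO 55.8 CPM (difference 0.67 ± 0.11, adjusted p = 0.000113). *Trmt10c*, a subunit of mitochondrial RNase P, and *Fbxl6*, an F-box protein, had differences of 0.80 ± 0.14 and 0.57 ± 0.09, and the effect of *Fbxl6* at ZT18 itself, −0.52, turned to 0.09 with library size alone.

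The largest decreases at ZT18 itself with no overlap were those of *Gm10032*, *Car14*, *Pck1*, *Fgf14* and *Rbp4*. *Pck1*, which makes glycerol 3-phosphate precursors for triglycerides, measured 1065, 1088, 1181 and 4634 CPM in WT and 60.0, 155, 105 and 77.5 CPM in FANKO (−4.33 ± 0.51, adjusted p = 1.44e-10). WT replicate 4 was again the highest, yet the lowest WT value was still above every FANKO value. *Car14*, a membrane-bound carbonic anhydrase, and *Rbp4*, the carrier of retinol, were lower by log2 −5.26 ± 0.39 and −3.91 ± 0.36, and *Gm10032*, a gene with no assigned function, by −7.14 ± 0.43. The largest increases were in genes nearly silent in WT. *Ighg2c*, an immunoglobulin heavy chain, had 2 counts over the 4 WT libraries and 4722 over the FANKO libraries, and *Apol9a* had 2 and 3898. *Oas3*, an interferon-induced sensor of double-stranded RNA, had 8 counts in WT and 9380 in FANKO, *Slfn4* 13 and 14543 and *Ifit1bl1* 9 and 8804. None of these 10 genes passed the test against the other times, and *Gm10032* came nearest (−1.86 ± 0.51, edgeR adjusted p = 0.0299), a difference of −0.92 without WT replicate 4 (adjusted p = 0.205).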

How the data were processed

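BAT and epididymal white fat of FANKO and WT mice were sequenced as stranded total RNA after removal of ribosomal RNA. The authors deposited raw read counts per gene, without normalization, which the submitters' processing notes attribute to STAR 2.5.3a and featureCounts 1.5.3 on build GRCm38.p5. Whether counting used the strand is not stated, so the counts of genes with exons on the opposite strand of another gene (*Cdkn1a*, *Cryab*, *Hspd1*, *Hspe1*, *Jun*, *Arntl*, *Car14*, *Irf7*, *Trap1*, *Mt2*, *Rora* and *Dnaja1*) may hold reads of that gene, as may those of *Ahsa1*, *Ahsa2* and *Dnaja1*, which overlap another gene on the same strand.

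Counts were fitted with edgeR 4.0.16 (R 4.3.3) by the quasi-likelihood test in 1 model with a mean for each of the 16 groups over 64 libraries, after TMM scaling and filterByExpr (minimum count 10, total 15), which kept 20249 genes and removed 32387. An FDR of 0.01 (Benjamini-Hochberg over all genes tested) was the threshold. The test against the other times took the genotype effect at ZT18 minus the mean of the effects at ZT6, ZT10 and ZT22. Log2 CPM in figures used a prior count of 2. Symbols and gene coordinates came from GENCODE annotation of GRCm38, matched by gene identifier for 52489 of 52636 genes.

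Genes were named by a rule: *Nampt*, in each list up to 5 genes with the smallest p against the other times and up to 3 at ZT18, and over all genes the 5 largest changes each way at ZT18 without overlap and the 5 smallest p each way against the other times. Heat shock genes for promoters were taken from those higher at ZT18 in WT. The members and lists were chosen with earlier results of these data known. On simulated counts (20148 genes) the test found 62% of 100 genes changed by 1 and 94% of 100 changed by 2 (log2), with 2 false calls among 19948 unchanged genes. The simulated spread followed the mean level of a gene alone, no library stood apart, and genes with low mean counts were not changed. These rates therefore do not cover genes of unusual spread or a library such as WT replicate 4. Alternatives were DESeq2 1.42.0, limma-voom 3.58.1, other scalings, filters and samples, a replicate block and the leaving out of libraries. No 2 libraries at ZT18 were identical (0 pairs).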

Additional observations from a re-analysis of the deposited data

Results flagged for a closer look

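Of the 151 genes whose genotype effect at ZT18 differed from the mean effect at the other BAT times in edgeR's quasi-likelihood test, 19 were named by the rule for stress, clock and all genes, and their differences are given in log2 (FANKO minus WT). Among stress genes these were *Stip1* (−0.64), *Hspa5* (0.73), *Gadd45b* (−1.71), *Cdkn1a* (−1.91), *Fkbp5* (−2.77), *Zbtb16* (−2.05) and *Ier5* (−1.14). Among clock genes they were *Arntl* (−1.93), *Cry1* (−0.86) and *Rora* (−0.84). Named for a small p over all genes, beside *Arntl*, were *Svil* (−1.11), *Dapk1* (−1.03), *Klf13* (−1.16), *Slc9a3r1* (−1.37), *Ftsj3* (0.72), *Nifk* (0.71), *Ubtf* (0.67), *Fbxl6* (0.57) and *Trmt10c* (0.80).

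In 14 of 204 groups examined (6.86%, where chance gives about 1 in 20) a library at ZT18 lay apart from the other 3 of its group (gap to the nearest value over the group's range, past Dixon's 95% critical value). WT replicate 4 accounted for 5 of them, always as the highest, with log2 CPM of 8.41 for *Gm10032* (next library 6.31), 7.18 for *Klf13* (6.48), 6.25 for *Nfil3* (4.99), 5.75 for *Nfkbia* (4.41) and 12.18 for *Pck1* (10.21). FANKO replicate 1 accounted for another 5, high for *Hspa13* (5.92, next 5.58), *Nupr1* (6.43, next 5.42), *Ppp1r15a* (4.25, next 3.97) and *Trmt10c* (5.01, next 4.80) and low for *Klf13* (5.11, next 5.68). The rest were *Car14* (−0.74, next −0.19) and *Clpx* (6.34, next 6.57), both low in FANKO replicate 4, *Cdkn1a*, low in FANKO replicate 3 (4.99, next 5.68), and *Ighg2c*, high in WT replicate 1 (−1.94, next −3.03).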

How the results depend on the processing

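The count of genes past an FDR of 0.01 depended on the tool and on the libraries. At ZT18 it was 8905, with 5675 when only the 8 BAT libraries at ZT18 were fitted and 7373 to 8749 with a replicate left out. For ZT18 against the other times it was 151, with 330 by DESeq2, 47 with library size alone, 60 with the 32 BAT libraries only, 589 at an FDR of 0.05 and 34 to 182 with a replicate left out (34, 81, 83 and 99 without the libraries numbered 1, 2, 3 and 4). The 7 stress genes became 14 by DESeq2, 4 by limma-voom and 4 to 9 in the leave-outs, and the 1 heat shock gene 3 by DESeq2, 2 with the replicate block, 5 at an FDR of 0.05 and 0 to 1 in the leave-outs. Against ZT6, 396 genes became 197 with BAT only and 224 to 442 in the leave-outs, lowest without FANKO replicate 1. Against ZT10, 157 became 284 by DESeq2, 74 with BAT only and 118 to 196 in the leave-outs. Against ZT22, 1 became 2 by DESeq2, 0 by limma-voom, 0 with BAT only and 0 to 5 in the leave-outs. The change over time gave 1131 genes in WT (817 to 1160 in the leave-outs) and 216 in FANKO, the latter becoming 333 by DESeq2, 88 with BAT only and 51 to 240 in the leave-outs, lowest without FANKO replicate 1. Library size alone turned the effect at ZT18 of *Stip1* to 0.29, of *Ei24* to 0.0421 and of *Fbxl6* to 0.0941, and made 88.1% of the calls at ZT18 higher against 48.9% with TMM. Of the values of single genes under the alternatives, 2000 kept direction and side of the threshold, 141 lost the call and 3 turned direction. The 2000 also hold the count of genes called in the glucocorticoid list with each of the 8 libraries at ZT18 left out. The causes were not tested.

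The labels do not say whether same-numbered samples share an animal, litter or day, and the samples were not treated as paired. For each gene the mean log2 CPM of the group was subtracted, and the deviations that remained were correlated between libraries. These deviations had correlations of 0.109, 0.0195, 0.174 and 0.05 between same-numbered WT and FANKO libraries at ZT18, 2 of 4 over 0.1. By these deviations, 2 of 4 WT libraries correlated best with their own number. So few pairs cannot decide whether the numbers share a source. With the replicate block 192 genes passed against the other times, 9047 at ZT18, 455 against ZT6, 180 against ZT10, 1 against ZT22, 1200 over time in WT and 240 in FANKO, with 7 stress genes and 2 heat shock genes, and *Zbtb16* lost its call under it (−1.86, adjusted p = 0.0128). With 4 libraries per group, changes under 1 on the log2 scale may be missed in the test against the other times.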

Other observations

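Genes of ribosome assembly were collected in a list of 81 after their values had been seen, so the counts are a description and carry no weight as a test. At ZT18, 36 of them were higher in FANKO and 6 lower, with a median log2 difference of 0.34. Over all genes 21.5% were higher and 22.5% lower. In edgeR's test of ZT18 against the other times 9 passed an FDR of 0.01, all above 0, *Utp14b*, *Ubtf*, *Heatr3*, *Rrp15*, *Ftsj3*, *Mak16*, *Tsr1*, *Nifk* and *Nop58*. That is 11.1% of the list, beside 0.746% of all genes (0.311% above 0). The median difference was 0.31, and 78 genes lay above 0 and 3 below, beside a median of −0.05 over all genes. From the other times to ZT18, 10 of the 81 genes fell in WT (6 without WT replicate 1 and 4 without WT replicate 4) and none rose (median −0.18), while in FANKO 2 rose (0 without FANKO replicate 1) and none fell (median 0.15). Of all genes 1.89% fell in WT and 0.721% rose in FANKO.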
